A study of Homo sapiens with 15 samples.

Results

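The troponin and tropomyosin genes encode the calcium switch of the thin filament, and 9 of the 48777 genes in the deposited tables were followed here over the differentiation of H1 cells towards heart muscle. The members were taken from a written list by their symbols in GENCODE: TNNT2, TNNT1, TNNI1, TNNI3 and TNNC1 of the troponins, and TPM1, TPM2, TPM3 and TPM4 of the tropomyosins. Each symbol mapped to a single row of the tables. All 9 passed the filter on low counts in every comparison.

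Bulk RNA-seq was available for 15 libraries of H1, a long-established line of human embryonic stem cells, taken on days 0, 4, 9, 11 and 20, with 3 replicates per day that the labels call biological. Day 0 cells were kept in the stem cell medium Nutristem on laminin, and cells of all later days were on the laminin pair LN-521 and LN-221. For day 0 the sample table lists LN-521 alone, whereas the labels name both laminins. In the protocol CHIR99021, an agonist of Wnt signalling, was given at day 4 for 24 h, IWP2, a Wnt inhibitor, was given from day 7 for 2 days, and the medium held B27 without insulin, so that cells of days 9, 11 and 20 had received both compounds and day 0 cells neither. The labels give day 9 where the methods list day 7. Libraries are named by the plate number in their sample names, which day 0 and 1 library of day 9 do not carry, and nothing states that a number marks a shared culture.

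Muscle contraction is switched on when calcium binds troponin C, which moves the inhibitory subunit, troponin I, and the tropomyosin-binding subunit, troponin T, so that tropomyosin slides on actin and myosin can attach. Troponin T and troponin I have separate genes for cardiac, slow skeletal and fast skeletal muscle, while cardiac and slow skeletal muscle share the troponin C gene TNNC1. The fetal heart uses the slow skeletal troponin I, TNNI1, and replaces it by the cardiac form, TNNI3, around and after birth, which makes this pair a common measure of cardiomyocyte maturity. Of the tropomyosins, TPM1 and TPM2 supply the main striated muscle forms, and TPM3 and TPM4 mostly supply forms of the cytoskeleton, although all these genes are spliced into several proteins.

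The troponin genes lie in pairs of a troponin I and a troponin T gene. On GRCh38, TNNT2 (ENSG00000118194) lies on chromosome 1 from 201359008 to 201377764, and TNNI1 (ENSG00000159173) from 201403784 to 201429866, on the same strand with 26019 bases between them. TNNT1 (ENSG00000105048) lies on chromosome 19 from 55132698 to 55149206 and TNNI3 (ENSG00000129991) from 55151767 to 55157773, also on the same strand, with 2560 bases between them. TNNC1 (ENSG00000114854) lies on chromosome 3 from 52451100 to 52454041. The tropomyosins are scattered, with TPM1 (ENSG00000140416) on chromosome 15, TPM2 (ENSG00000198467) on chromosome 9, TPM3 (ENSG00000143549) on chromosome 1 and TPM4 (ENSG00000167460) on chromosome 19.

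The sequences before the start sites of TNNT2, TNNI3 and TNNT1 are shown because TNNI3 and TNNT1 are neighbours whose levels parted during differentiation, while TNNT2 is the cardiac troponin T that rose. They are RefSeq promoter sequences on GRCh38.p14, minus strand, written 5′ to 3′ up to the start site or to the nearest annotated exon of the gene, and capitals mark matches to the motifs searched.
TNNT2, chr1:201377765-201377930: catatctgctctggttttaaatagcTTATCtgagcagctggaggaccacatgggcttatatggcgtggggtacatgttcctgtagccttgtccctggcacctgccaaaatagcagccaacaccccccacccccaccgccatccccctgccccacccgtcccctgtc
TNNI3, chr19:55157774-55157982: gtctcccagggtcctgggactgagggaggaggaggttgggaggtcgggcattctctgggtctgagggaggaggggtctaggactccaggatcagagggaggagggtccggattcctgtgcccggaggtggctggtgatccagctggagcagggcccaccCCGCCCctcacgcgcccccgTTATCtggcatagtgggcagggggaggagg
TNNT1, chr19:55149207-55149456: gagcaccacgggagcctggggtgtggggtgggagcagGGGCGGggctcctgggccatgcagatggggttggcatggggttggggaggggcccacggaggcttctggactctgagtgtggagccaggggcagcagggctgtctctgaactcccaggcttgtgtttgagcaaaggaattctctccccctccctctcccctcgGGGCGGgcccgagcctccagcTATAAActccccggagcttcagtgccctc
The motifs were searched on both strands in the 250 bases before and 50 bases after each start: GATAA for GATA factors (TTATC on the other strand), CATTCC for TEAD factors (the M-CAT motif), TATAAA for the TATA box, GGGCGG for the GC box (CCGCCC on the other strand), and the CArG box of serum response factor by its name. GATAA occurred in 22.7% of 35116 promoters, CATTCC in 14.03%, TATAAA in 11.5%, GGGCGG in 45.0% and the CArG box in 1.29%. The TNNT2 promoter held a GATAA match starting 225 bases before the start and a CATTCC match at 81 bases, outside the stretch printed. The TNNI3 promoter held a GC box at 91 bases before the start and GATAA matches at 71 bases and at 7 bases, the last outside the stretch printed. That of TNNT1 held a TATA box at 29 bases, GC boxes at 213 and 50 bases and no GATAA. A match describes letters only, and the table had entries for 7 of the 9 members, TNNI1 and TNNC1 being the other two.

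The libraries held 11990302 to 33469703 reads on genes. POU5F1, the pluripotency factor OCT4, lay between 931 and 1555 TPM (a unit that corrects for gene length and depth) on day 0 and between 2.29 and 9.98 TPM on day 20, whereas MYH6, the atrial myosin heavy chain, rose from at most 4.92 TPM on day 0 to between 1877 and 10790 TPM on day 20. The day 20 library labelled 2_3 stood apart, with an RNA integrity number of 6.1 and counts for 48230 genes, against at most 39551 in the other libraries. In day 0 replicate 3 and day 9 plate 2 a single short RNA took 20.0% and 17.0% of all TPM, which lowers every other TPM value there, so the tests between days used the counts.

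The cells before cardiac commitment already held tropomyosin transcripts and 2 troponins of the slow skeletal and cardiac pair on chromosome 19, but little of TNNT2, TNNI1 or TNNC1. On day 0 TNNT1, the slow skeletal troponin T, measured 165, 85.5 and 131 TPM in replicates 1, 2 and 3. TNNI3, the cardiac troponin I, measured 18.9, 10.1 and 15.5 TPM in the same libraries. TNNT2, the cardiac troponin T, measured 1.87, 4.24 and 2.06 TPM, from 94, 256 and 58 counts. In deposited TPM, TNNT1 thus made up at least 95.3% of the TNNT1 and TNNT2 sum in each of these libraries. By the length of the canonical GENCODE transcripts the lowest share was 86.4%, in replicate 2. The stem cells held more of the adult troponin I transcript than of the fetal one, TNNI1, which lay between 1.27 and 1.97 TPM. Of the tropomyosins, TPM3 and TPM4 had the highest deposited TPM on day 0 at 179 ± 47.9 TPM and 166 ± 28.5 TPM (SD, n = 3), before TPM2 at 103 ± 17.2 TPM and TPM1 at 93.4 ± 15.2 TPM.

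Between days 0 and 4 none of the 9 members passed the test. The quasi-likelihood test of edgeR, run on these 6 libraries, called 0% of the 20964 genes tested higher and 0% lower at an adjusted p-value under 0.05, and 741 genes lay below an unadjusted p of 0.05. DESeq2 also called 0 genes, with 703 at an unadjusted p below that value. The most negative member value was that of TNNT2, with a log2 fold change of −0.96 (standard error, SE, 0.33, unadjusted p 0.016, adjusted p 0.885 in edgeR), and its day 4 values of 1.23, 1.41 and 1.76 TPM lay below all 3 day 0 values. The other 8 members lay between −0.39 (TPM1) and 0.25 (TNNI3) on the log2 scale.

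The 3 troponins of the fetal heart left their floor between days 4 and 9. TNNT2 measured 1.23, 1.41 and 1.76 TPM on day 4 (plates 1, 2 and 5) and 15.4, 50.5 and 8.37 TPM on day 9 (plate 2, plate 6 and the library with no plate number), a log2 fold change of 4.04 (SE 0.63, adjusted p 0.00142 in edgeR). TNNI1 measured 1.54, 2.12 and 1.12 TPM on day 4 and 16.5, 54.6 and 18.9 TPM on day 9, a log2 fold change of 4.21 (SE 0.49, adjusted p 0.000348 in edgeR). TNNC1, the calcium-binding subunit, measured 9.82, 7.19 and 7.63 TPM on day 4 and 52.0, 47.6 and 47.5 TPM on day 9, a log2 fold change of 2.59 (SE 0.20, adjusted p 2.51e-05 in edgeR). No day 9 library overlapped day 4 for any of these 3 genes, and plate 6 stood above the other two day 9 libraries for TNNT2 and TNNI1 but not for TNNC1. The sum of 10 other cardiomyocyte genes, MYH6 and NKX2-5 among them, was also highest in plate 6 on day 9, at 1626 TPM against 685 and 440 TPM. In bulk RNA, more cells of a type and more RNA per cell cannot be told apart.

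The tropomyosins changed on the same interval in different directions. TPM1, the main striated tropomyosin, rose with a log2 fold change of 1.93 (SE 0.37, adjusted p 0.00379 in edgeR) from 82.2, 66.9 and 75.0 TPM to 208, 502 and 157 TPM, again highest in plate 6. TPM2 rose with a log2 fold change of 1.04 (SE 0.12) and TPM4 with 0.51 (SE 0.14), while TPM3 fell by 0.53 on the log2 scale (SE 0.11), at adjusted p-values of 0.000267, 0.0132 and 0.00458 in edgeR. TPM3 and TPM4 lost their calls where all 15 libraries shared a fit (adjusted p 0.135 and 0.376 in edgeR), and TPM4 lost its call without day 4 plate 2 (0.0575) or plate 5 (0.0577). In all, 6 members were called higher and 1 lower, against 24.3% and 24.7% of the 21252 genes tested. The median of the 9 members was a log2 fold change of 1.04, and that of all genes tested was 0.01. The pair on chromosome 19 gave no call, with TNNT1 at a log2 fold change of 0.02 (SE 0.16) and TNNI3 at −0.25 (SE 0.22).

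**Figure D1:**
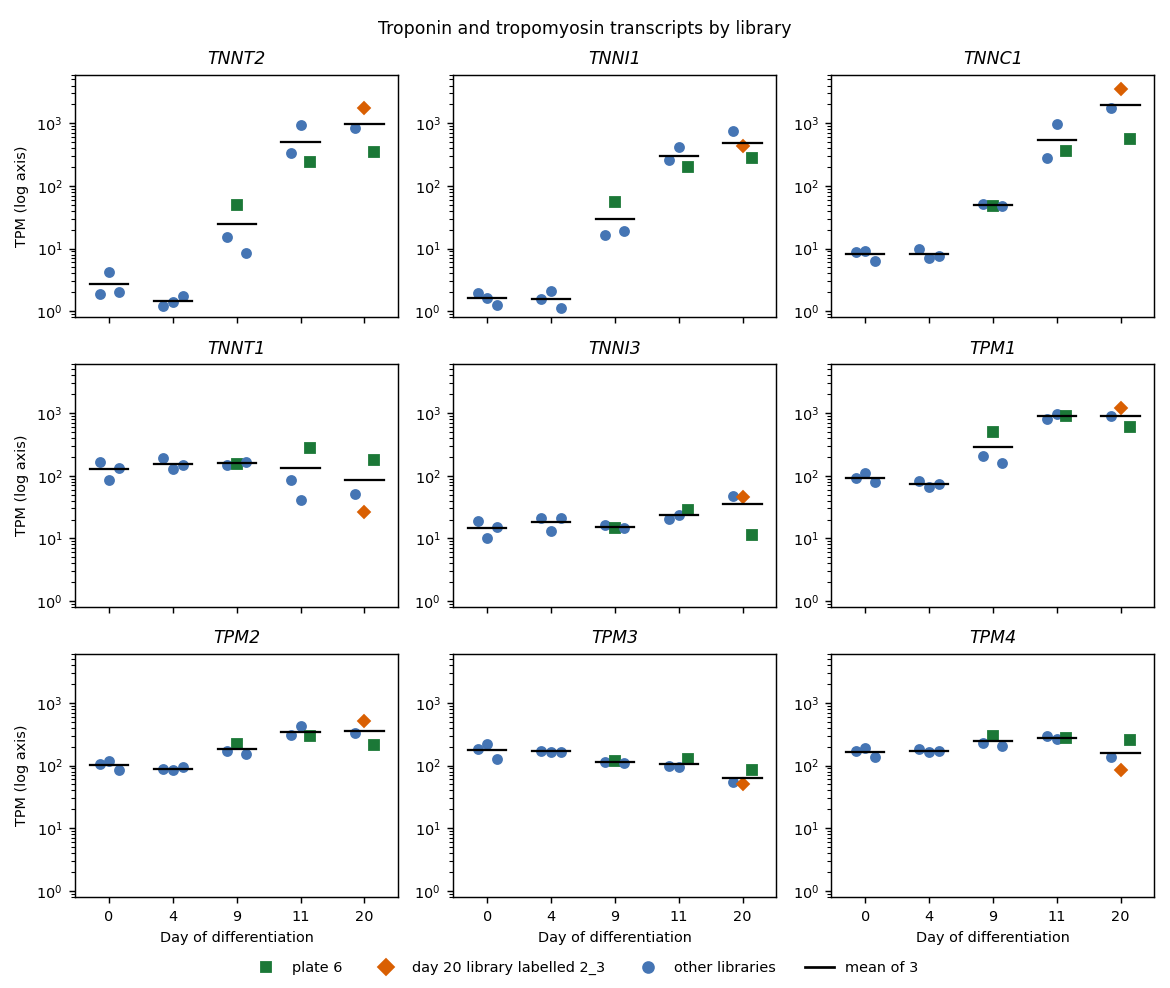
TPM of the 9 genes (log axis) on days 0, 4, 9, 11 and 20, with 1 point per library and a line at the mean of 3. TNNT2, TNNI1 and TNNC1 lie at or below 9.82 TPM on days 0 and 4 and at or above 203 TPM on days 11 and 20, whereas TNNI3 stays between 10.1 and 48.1 TPM throughout.

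From day 9 to day 11 the same 3 troponins rose again and no member was called lower. TNNT2 measured 332, 956 and 244 TPM on day 11 (plates 2, 5 and 6), a log2 fold change of 4.35 over day 9 (SE 0.81, adjusted p 0.0444 in edgeR). TNNI1 measured 263, 419 and 203 TPM, a log2 fold change of 3.28 (SE 0.49, adjusted p 0.0248 in edgeR). TNNC1 measured 275, 991 and 357 TPM, a log2 fold change of 3.39 (SE 0.49, adjusted p 0.0228 in edgeR). All day 11 values lay above all day 9 values for these genes, and plate 5 was the highest library for each. Plate 5 also had the largest sum of the 10 cardiomyocyte genes on that day, 23068 TPM against 6912 TPM in plate 2 and 5226 TPM in plate 6, and the part of the cell mixture in the differences between plates was not tested.

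These 3 calls made up the whole count of members, against 1.39% of the 20679 genes called higher and 1.00% called lower. TPM1 measured 811, 962 and 896 TPM on day 11 with a log2 fold change of 1.60 (SE 0.39, adjusted p 0.0851 in edgeR), and TPM2 measured 302, 429 and 299 TPM with 0.87 (SE 0.19, adjusted p 0.0648 in edgeR). Neither overlapped its day 9 values, and both passed in DESeq2, at adjusted p 0.00079 and 0.00233. Tropomyosins of the same genes also serve smooth muscle, and 5 of 8 smooth muscle genes were called higher on day 11, with summed levels of 703, 1129 and 854 TPM in plates 2, 5 and 6 after 192, 331 and 145 TPM on day 9, and their part in TPM1 and TPM2 was not tested. TPM3 at −0.16 and TPM4 at 0.13 moved little against standard errors of 0.17 and 0.16. The calls depended on single libraries: TNNT2, TNNI1 and TNNC1 all lost theirs without day 9 plate 2 (adjusted p 0.211, 0.127 and 0.127 in edgeR) or without the day 9 library with no plate number (0.15, 0.106 and 0.122). Without day 11 plate 2, TNNT2 (0.0929) and TNNI1 (0.069) were lost. TNNT2 was also lost without day 11 plate 5 (0.0612) or plate 6 (0.0588), and with only genes of at least 1 CPM on average (0.0517). Without any filter on low counts all 3 were lost (0.22, 0.12 and 0.111 in edgeR). The log2 fold changes stayed between 3.55 and 5.29 for TNNT2, between 2.96 and 3.94 for TNNI1 and between 2.65 and 3.71 for TNNC1 when libraries were left out.

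After day 11 no member passed the test, against 1.12% of the 21398 genes called higher and 0.435% called lower on day 20. TNNC1 came nearest, with 1778, 3526 and 571 TPM on day 20 (plate 2, the library labelled 2_3 and plate 6) and a log2 fold change of 1.62 (SE 0.65, unadjusted p 0.0376, adjusted p 0.264 in edgeR). It passed where all 15 libraries shared a fit (adjusted p 0.0406 in edgeR). TNNT2 measured 838, 1745 and 353 TPM on day 20, with a log2 fold change of 0.71 (SE 0.65). TNNI1 measured 744, 437 and 279 TPM with 0.61 (SE 0.48). Both overlapped their day 11 values. The 3 day 20 libraries differed from each other by up to 6.18 times for TNNC1, and plate 6 was the lowest for each of these genes. It was also the library with the largest sum of 8 fibroblast genes, 24486 TPM against 3211 and 1219 TPM, and the smallest sum of cardiomyocyte genes, 6392 TPM against 26854 and 26832 TPM.

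TPM3 and TPM4, which supply cytoskeletal forms, had lower values on day 20 than in any day 11 library but did not pass the test. TPM3 measured 55.1, 49.96 and 84.4 TPM on day 20 after 98.5, 95.3 and 125 TPM on day 11, a log2 fold change of −0.85 (SE 0.36, adjusted p 0.289 in edgeR). TPM4 measured 135, 86.0 and 252 TPM after 293, 261 and 273 TPM, a log2 fold change of −0.86 (SE 0.48, adjusted p 0.429 in edgeR). In both, plate 6 was again the day 20 library nearest to day 11.

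Over the whole course from day 0 to day 20, 5 members were called higher and 1 lower, against 16.1% and 11.3% of the 21988 genes tested. The log2 fold changes of TNNT2, TNNI1 and TNNC1 were 8.13 (SE 0.71), 8.01 (SE 0.55) and 7.56 (SE 0.65), at adjusted p-values of 0.000367, 0.000197 and 0.00035 in edgeR. TPM1 rose by 2.97 (SE 0.36, adjusted p 0.00111) and TPM2 by 1.46 (SE 0.30, adjusted p 0.00874), while TPM3 fell by 1.70 on the log2 scale (SE 0.37, adjusted p 0.0117, all in edgeR). TPM2 lost its call without day 0 replicate 1 (adjusted p 0.0748 in edgeR) or replicate 3 (0.095), and without the filter on low counts (0.11), and TPM3 without day 0 replicate 2 (0.0556). The members' median was 1.46 and that of all genes tested 0.11. TNNT1, TNNI3 and TPM4 did not pass, at −0.73 (SE 0.70), 0.95 (SE 0.52) and −0.24 (SE 0.47).

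**Figure D2:**
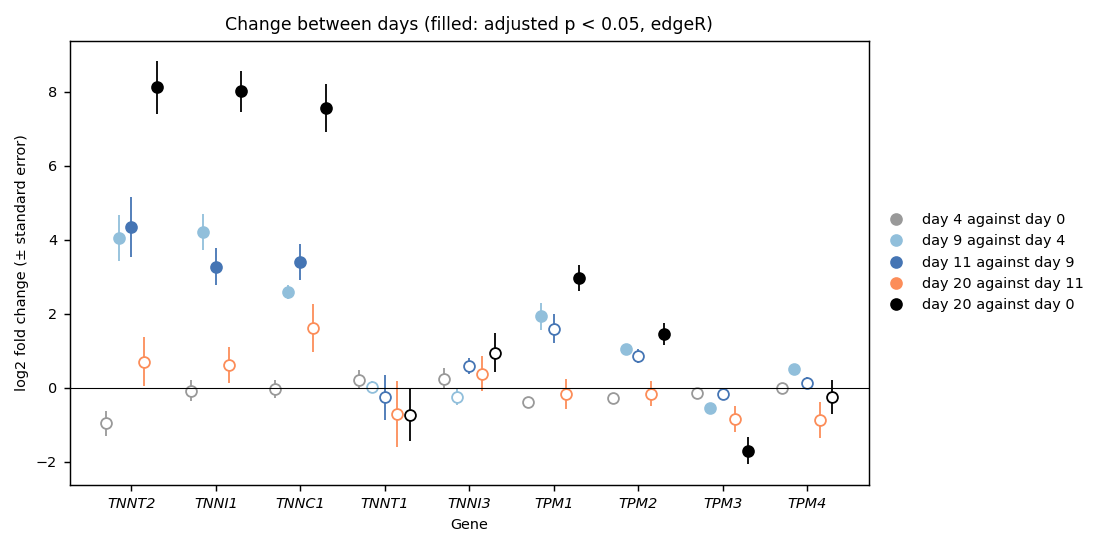
Log2 fold change of each gene in the 5 comparisons (edgeR, 3 libraries against 3), with bars for the standard error and filled points where the adjusted p-value lay under 0.05. TNNT2, TNNI1 and TNNC1 have filled points for day 9 against day 4 and for day 11 against day 9, and no gene has one for day 20 against day 11.

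The troponin I pair was followed as the share of TNNI3 in the summed TPM of TNNI1 and TNNI3. It fell from 89.8% ± 3.11 on day 0 and 91.4% ± 4.65 on day 4 to 38.3% ± 15.2 on day 9, 8.23% ± 3.55 on day 11 and 6.53% ± 2.88 on day 20 (SD, n = 3). The single libraries gave 49.7%, 21.0% and 44.1% on day 9, 7.26%, 5.27% and 12.2% on day 11, and 6.07%, 9.62% and 3.91% on day 20. Days 11 and 20 overlapped, and day 9 stood above both. The differences among days 9, 11 and 20 were tested by an exact permutation of the day labels over the 9 libraries on the log2 ratio, with p = 0.0179 and 0.0268 after adjustment over 3 shares, where 0.00357 is the smallest p possible. Without day 20 plate 6 this exact p was 0.0571. Each of the 3 sequencing lanes that held a library of all 3 days gave a lower share on each later day. By plate number, plate 2 went from 7.26% on day 11 to 6.07% on day 20, and plate 6 from 12.2% to 3.91%. The day 20 library labelled 2_3, at 9.62%, lay above day 11 plate 2. The order of days 11 and 20 therefore depends on how libraries are paired. Nothing states that libraries of a lane share a culture, so the lanes do not establish a fall between these days. Days 11 and 20 were not tested against each other.

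TNNI3 passed no comparison, while TNNI1 was called higher from day 4 to day 9 and from day 9 to day 11. TNNI3 measured 16.3, 14.5 and 14.9 TPM on day 9, 20.6, 23.3 and 28.0 TPM on day 11 and 48.1, 46.5 and 11.4 TPM on day 20. All day 11 values lay above day 9, with a log2 fold change of 0.60 (SE 0.21, unadjusted p 0.0236, adjusted p 0.201 in edgeR). On day 20 plates 2 and 2_3 held more TNNI3 than any earlier library, whereas plate 6 held less than any library of day 11, and the log2 fold change of 0.38 (SE 0.48) turned to −0.10 when plate 2 was left out. The TNNI3 counts behind these values lay between 103 and 607 on day 20. The size of the share depends on the gene length used, because the length behind the deposited TPM of TNNI1, 7524 bases, is 3.7 times that of TNNI3, and the canonical transcripts of GENCODE gave 14.8% and 11.96% on days 11 and 20.

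The troponin T pair moved from the slow skeletal TNNT1 to the cardiac TNNT2, whereas the troponin I pair moved from the cardiac TNNI3 to the slow skeletal TNNI1. TNNT1 made up 97.5% ± 1.97 of the pair on day 0, 99.0% ± 0.284 on day 4, 87.1% ± 10.4 on day 9, 25.9% ± 25.0 on day 11 and 13.6% ± 17.3 on day 20 (SD, n = 3). The day 11 libraries gave 20.3%, 4.15% and 53.2%, and those of day 20 gave 5.81%, 1.49% and 33.5%, with plate 6 the highest on both days. By canonical transcript length the same libraries gave 7.41%, 1.34% and 26.3% on day 11, and 1.90%, 0.471% and 13.6% on day 20. The size of this share thus depends on the length used, and TNNT1 was the larger part in day 11 plate 6 only by TPM. Over days 9, 11 and 20 the exact permutation p was 0.0286, and 0.0286 adjusted over the 3 shares. It rose to between 0.05 and 0.0929 without day 9 plate 2, the day 9 library with no plate number, day 11 plate 2, day 20 plate 2 or the library labelled 2_3.

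TNNT1 itself was spread widely once cardiac genes were on. It measured 147, 155 and 168 TPM on day 9, with little spread, then 84.7, 41.4 and 278 TPM on day 11 and 51.6, 26.3 and 177 TPM on day 20. No comparison called it with all libraries, at log2 fold changes of −0.26 (SE 0.62) from day 9 to 11 and −0.71 (SE 0.88) from day 11 to 20. Without day 20 plate 6 it was called lower on day 20 than on day 0, with a log2 fold change of −2.01 (adjusted p 0.0332 in edgeR). The 2 libraries with the most TNNT1 after day 9 were those of plate 6, which on both days had the largest fibroblast sum (7372 TPM on day 11) and the smallest cardiomyocyte sum. The lowest TNNT1 values, 41.4 and 26.3 TPM, were in libraries with 23068 and 26832 TPM of cardiomyocyte genes, and the part of the other cells in TNNT1 was not tested. The yolk sac and liver endoderm genes, 8 in number, summed to 2561 TPM in plate 6 on day 11 against 1521 and 681 TPM, and on day 20 to 22925 TPM in plate 6, 22022 TPM in plate 2 and 875 TPM in the library labelled 2_3. The 9 skeletal muscle genes summed to 22.3 to 70.2 TPM on day 11 and 32.9 to 140 TPM on day 20, of which ACTN3, the fast muscle alpha-actinin, made up 30.1 to 137 TPM on day 20, with 2 to 5 of the 9 at 0 on day 11 and 0 to 3 on day 20. MYOD1, the skeletal muscle regulator, was at most 0.214 TPM on day 11 and between 0 and 8.35 TPM on day 20 (median 0.499 TPM). MYOG, another, was at most 1.26 TPM on day 11 and between 1.05 and 5.51 TPM on day 20 (median 1.32 TPM). The highest day 20 value of each was in the library labelled 2_3, which had the least TNNT1. The part of both lists in TNNT1 was not tested.

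**Figure D3:**
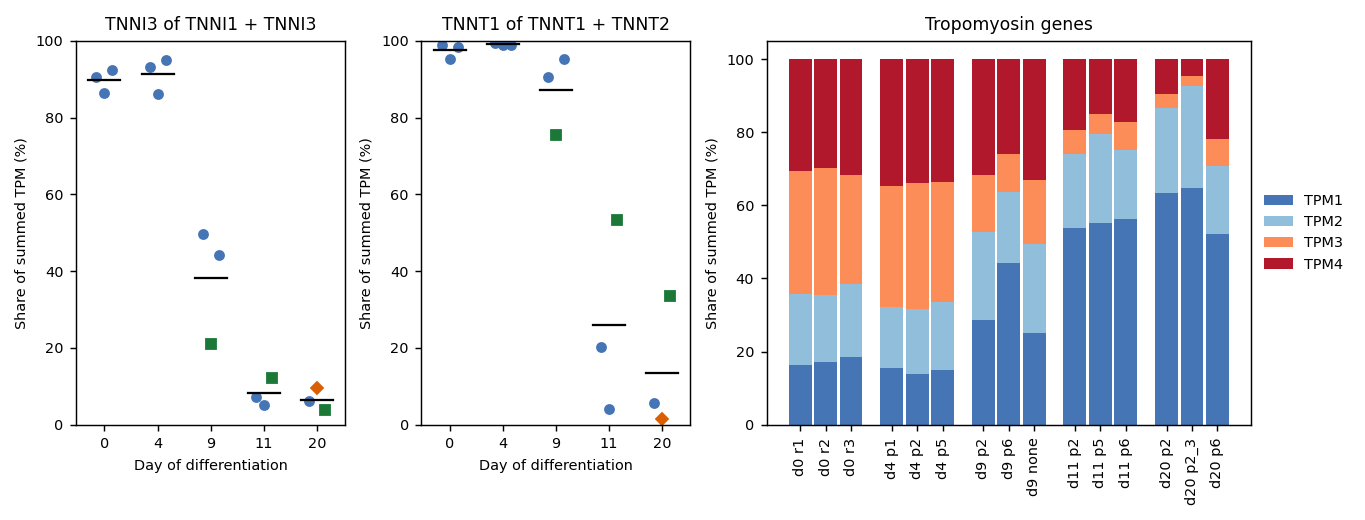
Share of TNNI3 in TNNI1 plus TNNI3 (left) and of TNNT1 in TNNT1 plus TNNT2 (middle), in percent of summed TPM with 1 point per library and a line at the mean (squares, plate 6; diamond, library labelled 2_3), and the 4 tropomyosin genes as stacked shares per library (right). The TNNI3 share is at least 86.2% on days 0 and 4 and at most 12.2% on days 11 and 20, and TPM1 takes at least 52.1% of the tropomyosin TPM from day 11.

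The neighbours TNNI3 and TNNT1 kept a narrow ratio until day 9 and then parted in the later libraries other than plate 6. The TPM of TNNI3 divided by that of TNNT1 was 0.114, 0.118 and 0.118 on day 0, 0.11, 0.101 and 0.143 on day 4 and 0.111, 0.0937 and 0.0885 on day 9. On day 11 it was 0.243 in plate 2 and 0.562 in plate 5 but 0.101 in plate 6, and on day 20 it was 0.931 in plate 2 and 1.77 in the library labelled 2_3 but 0.0641 in plate 6. The 9 libraries of the first 3 days and both later plate 6 libraries thus lay between 0.0641 and 0.143, and the other 4 libraries between 0.243 and 1.77. The ratio was chosen after its values were seen and is given without a test. An annotated gene on the same strand overlaps TNNI3 (ENSG00000267110) and was not used here, and reads of both cannot be told apart.

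The proportions among the fetal heart troponins were compared in the same way. TNNC1 divided by TNNT2 was 3.37, 0.943 and 5.68 on day 9, 0.828, 1.04 and 1.46 on day 11 and 2.12, 2.02 and 1.62 on day 20. Every day 20 library had more troponin C per cardiac troponin T transcript than any day 11 library, while the range of day 9 covered all of day 20. TNNI1 divided by TNNT2 was 0.794, 0.438 and 0.829 on day 11 and 0.888, 0.25 and 0.792 on day 20, with overlap between the days. The low value of 0.25 was in the library labelled 2_3. These ratios compare levels per length and were given without a test for the same reason.

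**Figure D4:**
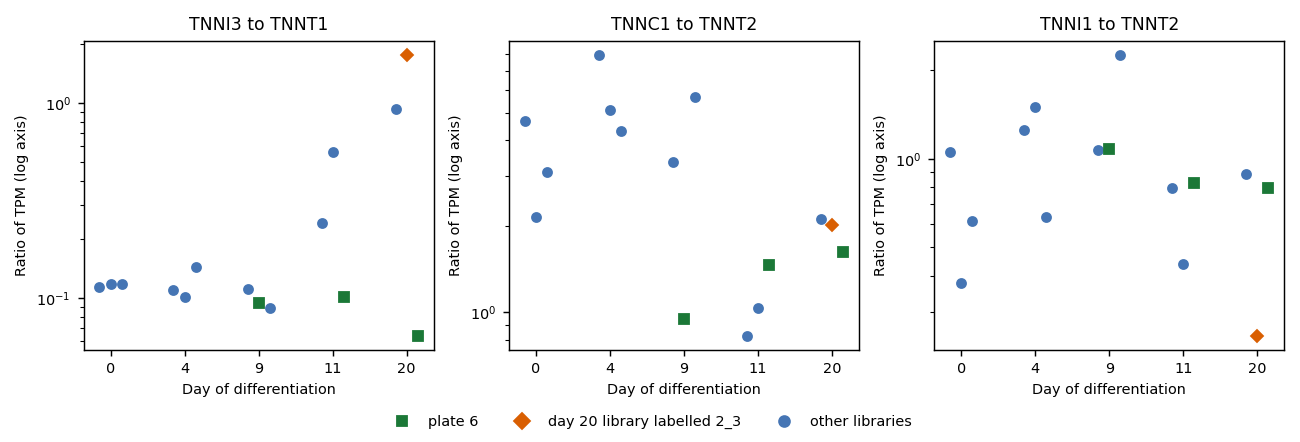
Ratios of TPM between pairs of genes in each library on a log axis, by day (squares, plate 6; diamond, library labelled 2_3). TNNI3 to TNNT1 lies between 0.0641 and 0.143 in 11 libraries and between 0.243 and 1.77 in 4, and TNNC1 to TNNT2 is higher in all day 20 libraries than in any of day 11.

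Among the tropomyosins TPM1 went from the lowest mean TPM of the 4 on day 0 to the highest on days 11 and 20, although by canonical transcript length it already held 47.6% of them on day 0. Its share of the summed TPM of the 4 genes was 17.4% ± 1.10 on day 0, 14.8% ± 0.853 on day 4, 32.7% ± 10.3 on day 9, 55.1% ± 1.17 on day 11 and 60.1% ± 6.93 on day 20 (SD, n = 3). The share of TPM3 went from 32.7% ± 2.51 on day 0 to 14.6% ± 3.64 on day 9 and 4.65% ± 2.40 on day 20, and that of TPM4 from 30.7% ± 0.913 to 12.03% ± 8.88 between days 0 and 20. TPM2 kept between 16.6% and 27.8% of the summed TPM in all libraries. By canonical length, TPM2 held 17.0% to 17.8% on day 0 and 9.42% to 12.2% on day 20, and TPM3 held 9.13% to 11.2% on day 0. In TPM, the TPM1 share was 28.7%, 44.4% and 25.0% on day 9, 53.9%, 55.1% and 56.2% on day 11, and 63.4%, 64.8% and 52.1% on day 20. Day 9 lay below both later days, and day 20 plate 6 below all of day 11. On day 9 TPM4 took more of the TPM than TPM1 in plate 2 (31.8%) and in the library with no plate number (32.98%), but less in plate 6 (25.9%). Over days 9, 11 and 20 the exact permutation p was 0.0143, and 0.0268 adjusted over the 3 shares, and it lay between 0.05 and 0.0643 without any of the day 11 libraries, day 20 plate 2 or the library labelled 2_3.

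Gene totals do not show which spliced form was made, so the fetal and adult forms of TNNT2 and the muscle and cytoskeletal forms of each tropomyosin cannot be told apart here. The antisense gene TPM1-AS overlaps TPM1 and held 5661 counts over all libraries against 457184 for TPM1. The pseudogene TPM3P9 held counts equal to 4.84% of those of TPM3, and the other tropomyosin pseudogenes less than 1% of their parent gene, so that shared reads could move TPM3 more than the others.

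Other genes of the thin filament were taken from a list of 12 written with earlier results known, 11 of which had a row. From day 4 to day 9, 5 of the 9 tested were called higher and 2 lower, against 24.3% and 24.7% of all genes, with a list median of 0.40 on the log2 scale against 0.01 over all genes. ACTC1, the cardiac actin, rose with a log2 fold change of 4.51 (SE 0.43), TMOD1, which caps the slow-growing filament end, with 3.37 (SE 0.28), and LMOD2, which promotes filament elongation, with 3.90 (SE 0.52). NEB, the giant ruler protein of skeletal thin filaments, fell by 3.51 on the log2 scale (SE 0.26), and FHOD3, an actin-assembling formin, fell by 1.37 (SE 0.22). LMOD2 had 2 to 5 counts per library on day 4, and on the compressed log2(TPM + 1) scale of limma its change was 1.68 and that of NEB −2.28. ACTC1, which has the closest course to TPM1 among the genes compared, was at 86.4 to 303 TPM on day 9 and at 1758 to 3924 TPM on day 11.

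From day 9 to day 11, 4 of 9 tested were called higher and 0 lower, against 1.39% and 1.00% of all genes. ACTA1, the skeletal actin that the fetal heart also uses, had a log2 fold change of 4.11 (SE 0.65), NEBL, the nebulin relative of heart muscle, 2.55 (SE 0.33), and FHOD3 2.66 (SE 0.36), at adjusted p-values of 0.0281, 0.0177 and 0.02 in edgeR. All 3 lost their calls without day 9 plate 2 or the day 9 library with no plate number, like the members, and ACTA1 also without day 9 plate 6. From day 11 to day 20, 1 of 11 was called higher and 0 lower, against 1.12% and 0.435% of all genes, namely CFL2, a muscle cofilin, with a log2 fold change of 1.51 (SE 0.26, adjusted p 0.0371 in edgeR). Its call was lost in 5 of the 6 fits that left out 1 library, at adjusted p-values of up to 0.253. From day 0 to day 20, 8 of 11 were called higher and 0 lower, against 16.1% and 11.3% of all genes, LMOD2 with a log2 fold change of 9.41 (SE 1.10, and 6.22 on limma's log2(TPM + 1) scale) and TMOD1 with 6.87 (SE 0.73).

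The troponins of fast skeletal muscle did not exceed 18.9 TPM in any library. TNNC2, the fast troponin C, measured 15.6, 16.1 and 15.2 TPM on day 4 and 3.93, 2.09 and 2.47 TPM on day 9, and was called lower with a log2 fold change of −2.45 (SE 0.30, adjusted p 0.00029 in edgeR). TNNT3, the fast troponin T, measured 4.83, 14.6 and 6.39 TPM on day 20 against 0.56 to 1.20 TPM on day 11, and was called higher with a log2 fold change of 3.19 (SE 0.59, adjusted p 0.0445 in edgeR). Leaving out 1 library ended that call in 5 of the 6 fits, at adjusted p-values of up to 0.279, and so did upper-quartile scaling (0.0744). The highest TNNT3 value, like the highest TNNI2 count of 44, was in the library labelled 2_3.

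The genes whose levels over the 15 libraries were most like those of the members were sought among 12494 genes by Pearson's r of log2(CPM + 1), as a description, since the libraries share days, depth and cell mixture. TNNT2 was most like XIRP1 (0.99) and POPDC2 (0.99), and TNNI1 most like SMYD1 (0.99), which are all genes of striated muscle, and both were also close to IGFBP7 (0.99 in each). TPM1 was most like ACTC1 (0.99), DYNLT1 (0.98) and TNNT2 (0.98). The values for the chromosome 19 pair were lower, with GYS1 (0.87) and TNRC6B (0.84) for TNNI3 and MARCKS (0.91), TRIM21 (0.91) and FGFR2 (0.90) for TNNT1.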

How the data were processed

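Gene counts and TPM of 15 bulk RNA-seq libraries were used, with the day of each taken from its label. The authors sequenced RNA without ribosomal RNA in pairs, aligned it to GRCh38 with STAR 2.5.2b and deposited raw counts per gene from featureCounts 1.5.1, per the methods and the submitters' processing notes, and the strand setting is not given in the sources used here. TPM, deposited by the authors as well, was calculated within each library. A further deposited table gives, for each sample, its lane, its RNA integrity (a score) and the fraction of reads mapped once. The members and lists were chosen with earlier results of these data known.

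Each pair of days was compared on its 6 libraries with edgeR 4.0.16 (R 4.3.3; TMM scaling, filterByExpr at min.count 10 and min.total.count 15, robust quasi-likelihood test). Tests were two-sided adjusted by Benjamini-Hochberg across every gene in the fit, called under 0.05, and the SE is the log2 fold change divided by the square root of F. Totals of 11990302 to 33469703 counts limit the precision of genes with few reads. The p-values measure the spread between replicates that the labels call biological. Shares were compared over days 9, 11 and 20 with an exact permutation test in scipy 1.17.1 (1680 arrangements). Its statistic was the sum of squares between days of the log2 ratio, which shows that days differ but gives no direction. A single gene with 3 libraries against 3 cannot go below an exact p of 0.1. The genes that could be named were the 9 members, those of the written lists, and for 5 members the 3 genes with the highest r among those averaging 10 CPM or more on some day. Not all of them are named, and 1 is not reported here.

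The alternatives were DESeq2 1.42.0, upper-quartile scaling, no filter, genes filtered on a mean of 1 CPM, a joint fit of all 15 libraries, limma 3.58.1 on log2 TPM after adding 1 or 0.1, an adjusted p under 0.01, a plate block, a lane block, and each library left out in turn. For shares they were raw counts, medians and left-out libraries. Shares by the length of the canonical transcript, share tests without each library, and the same alternatives for the thin filament genes were added after the data were seen. The fits were tested on simulated data for day 11 against day 9, in which 200 of 20679 genes were changed. There edgeR recovered 89 of 100 genes changed 4-fold and 38 of 100 changed 2-fold, with 5.22% false among 134 calls. Every simulated gene was given the same fixed spread between replicates. In the deposited counts the SE of the members for these days ran from 0.16 (TPM4) to 0.81 (TNNT2). The recovery rates therefore describe the simulated data only and do not carry over to single members. Whether the fixed spread equals the typical one between the libraries was not tested. In the deposited counts for these days, 6 of the 10 cardiomyocyte genes were called higher, against 1.39% of all genes tested. The others were not called, namely PLN with a log2 fold change of 4.48 (SE 1.10), NPPA with 6.83 (SE 1.74), MYL7 with 2.77 (SE 0.85) and RYR2 with 2.61 (SE 0.54). Coordinates and transcript lengths come from GENCODE v44 on GRCh38, and promoter sequences from RefSeq.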

Additional observations from a re-analysis of the deposited data

How the results depend on the processing

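Depth limits TNNT2, TNNI1 and TNNC1 on days 0 and 4, where single libraries held few counts, so their early fold changes rest on small numbers. A day compared by 3 libraries leaves calls open to each of them. Of 675 refitted log2 fold changes of the members, 608 kept their direction and side of the threshold, 29 lost a call, 10 gained one and 28 changed sign, all of the last in values that had not passed. The causes were not tested unless a smaller number of libraries or genes gives them.

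The number of members called from day 9 to day 11 was 3, against 5 with DESeq2, 1 without the filter, 0 at an adjusted p under 0.01 and 0 to 4 when a library was left out. From day 11 to day 20 it was 0 and became 1 with all 15 libraries in one fit. Over all genes, the calls from day 0 to 4 went from 0 to 64 without the filter, and those from day 4 to 9 from 10406 to 6209 with all 15 libraries. From day 9 to 11 the 495 calls became 1674 with DESeq2, 1016 without the filter, 3 at an adjusted p under 0.01 and 0 to 573 with a library left out. From day 11 to 20 the 332 calls became 1871 with DESeq2, 3132 with all 15 libraries, 0 at the stricter threshold, 137 with the lane block and 0 to 510 with a library left out. From day 0 to 20 the 6027 calls became 10785 with all 15 libraries, 2852 at the stricter threshold and 3128 to 8993 with a library left out. Upper-quartile scaling moved the median log2 fold change of all genes from day 11 to 20 from 0.07 to 0.18.

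With the plate number as a replicate block, 1971 genes were called from day 9 to 11 and 3 from day 11 to 20. Only plates 2 and 6 had libraries on both days of either comparison, and the library labelled 2_3 was counted with plate 2. This block therefore leaves little to estimate the spread between replicates. TNNT2 and TNNI1 lost their day 11 calls (adjusted p 0.3 and 0.316 in edgeR), TPM1 and TPM2 gained one (0.0089 and 0.0238), and TNNI3 from day 11 to 20 turned to −0.0201. Libraries of the same plate correlated after removal of the day means with r of 0.09 (plate 2) and 0.28 (plate 6) between days 9 and 11, and of −0.14, 0.02 and 0.33 between days 11 and 20, and neither the labels nor these values establish that a number marks a shared culture. A plate block could not be fitted for the other comparisons, whose days share fewer than 2 plate numbers. With the sequencing lane as the block, day 9 against day 4 gave 4498 genes higher and 4698 lower, with 6 members higher and 1 lower.

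Signs turned at small values. From day 0 to 4, TNNC1 (−0.04) was 0.0198 and 0.0225 in limma after adding 1 or 0.1 and −0.21 to 0.0533 with a library left out. TPM4 (−0.01) was 0.0177 with upper-quartile scaling, 0.0079 without the filter, 0.003 with all libraries, 0.0654 and 0.0658 in limma and −0.073 to 0.0699 with a library left out. With a library left out, TNNT1 lay between −0.0214 and 0.38, TNNI1 between −0.32 and 0.13, and TPM3 between −0.24 and 0.0056. From day 4 to 9, TNNT1 (0.02) was −0.0317 with all libraries and −0.10 to 0.20 with one left out. Over later intervals the left-out ranges were −1.39 to 0.18 for TNNT1 from day 9 to 11, −1.97 to 0.42 for TNNT1, −0.10 to 0.75 for TNNI3 and −0.33 to 0.0148 for TPM2 from day 11 to 20, and −0.90 to 0.12 for TPM4 from day 0 to 20.

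The direction of the TNNI3, TNNT1 and TPM1 shares over the days was kept by raw counts and by canonical length, but their size was not. The direction of the TPM2 share was not kept by canonical length, which gave 17.0% to 17.8% on day 0 and 9.42% to 12.2% on day 20. For TNNI3, raw counts gave 70.6%, 75.0%, 15.1%, 2.39% and 1.87% on days 0, 4, 9, 11 and 20, and canonical length gave 94.5%, 53.6%, 14.8% and 11.96% on days 0, 9, 11 and 20. For TNNT1, raw counts gave 92.4%, 96.9% and 69.2% on days 0, 4 and 9, and canonical length 92.7%, 97.0% and 70.1%. On days 11 and 20 they gave 11.3% and 5.11% by raw counts and 11.7% and 5.33% by canonical length, against 25.9% and 13.6% by TPM. For TPM1, raw counts gave 27.2%, 23.4%, 47.7%, 71.9% and 77.1%, and canonical length 47.6%, 42.9%, 63.5%, 81.2% and 83.5%, which makes TPM1 no longer the least abundant on day 0. With a library left out, the exact permutation p of the shares lay between 0.0179 and 0.0571 for TNNI3, 0.0143 and 0.0929 for TNNT1, and 0.0143 and 0.0643 for TPM1.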
